A study of Mus musculus with 17 samples.

Results

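The 40 genes described here act in the repair of DNA double-strand breaks and interstrand crosslinks. They were taken from a list of symbols matched to the Ensembl identifiers of the deposited counts, and all 40 were found among the 53313 identifiers common to all 17 libraries. By role, 23 were set in an S-phase-linked class (recombination mediators, Fanconi anaemia genes, resection and junction enzymes, Chek1, Polq and Msh6). The other 17 were set in an end-joining and damage-signalling class. RNA was sequenced from primary tubular epithelial cells (PTEC) of wild-type C57BL/6JRj mice and from whole kidneys of wild-type male mice of the same strain. Non-senescent PTEC were 4 libraries of day 6 without irradiation, and senescent PTEC were 4 libraries of day 16 after 10 Gray of γ-irradiation, given to confluent cells. Irradiation and time in culture changed together in this design and cannot be told apart. Kidneys, with no treatment in the labels, came from mice of 3, 12 and 24 months, with 3 libraries per age. PTEC were grown from sieved tubular fragments with no sorting step described, and each kidney library comes from a piece of 1 kidney with all its cell types. The labels number the libraries but do not say that they are separate cultures or animals, so p-values measure the spread between these libraries.

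A double-strand break can be rejoined end to end in any phase of the cell cycle, or copied from the sister chromatid by homologous recombination, which needs resected ends and a replicated template. Crosslinks between the strands block replication forks and are unhooked by the Fanconi anaemia pathway, after which recombination completes the repair. Kinases of the ATM and ATR families signal both kinds of damage to checkpoints, and many recombination genes are transcribed mainly in cycling cells.

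Between 26963442 and 35409144 reads per library were counted on genes in PTEC and between 37311247 and 66894790 in kidneys. Levels are given as CPM, a gene's count scaled to a common library size with TMM factors. The tubular label of PTEC was checked with 12 proximal tubule genes. Their summed level was 241 to 849 CPM in non-senescent PTEC, 176 to 357 CPM in senescent PTEC and 38281 to 51088 CPM in kidneys, and 8 of 12 reached 1 CPM in non-senescent and 6 of 12 in senescent PTEC, where Slc22a12 was at 0 counts. All 12 T and B cell genes stayed under 1 CPM in PTEC. Of other lists, 6 of 6 macrophage, 5 of 5 endothelial and 4 of 6 fibroblast genes reached 1 CPM in both PTEC groups. Of 5 leukocyte genes, 4 did so in non-senescent and 3 in senescent PTEC. Non-senescent replicate 3 stood apart, with long genes lower against short genes by 1.07 on the log2 scale, and senescent replicate 3 by 0.58, whereas the other PTEC libraries lay between 0.16 and 0.43 above. Kidneys spread from -0.68 to 0.74 on this measure. In bulk RNA, fewer cells of a type and less RNA per cell cannot be told apart.

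The start regions of 5 members are shown. They were chosen after the search. Bard1, Brca2 and Msh6 are the S-phase-linked members that hold a word bound by E2F factors, the regulators of S-phase transcription. Topbp1 and Trp53bp1 had the lowest and highest PTEC fold change among the end-joining and damage-signalling members with a window. Topbp1 holds a word too, and it fell in senescent PTEC as the first 3 did, whereas Trp53bp1 rose. Most members that fell hold no such word, so the choice shows the word and not a link to the fall. RefSeq windows of 300 bases (GRCm38.p6, 250 before the start and 50 after it) were found for 31 of the 40 members. Each window was searched on both strands for TTTCCCGC, TTTCGCGC, TTTGCCGC and TTTGGCGC. Other words searched in the same way, given below, do not contain these, although neighbouring matches could share bases. The capitals mark the matched word, each sequence runs 5′ to 3′ on the strand of its gene, and the window of Trp53bp1 has no match.
Bard1 (chr1:71102923-71103222, minus strand): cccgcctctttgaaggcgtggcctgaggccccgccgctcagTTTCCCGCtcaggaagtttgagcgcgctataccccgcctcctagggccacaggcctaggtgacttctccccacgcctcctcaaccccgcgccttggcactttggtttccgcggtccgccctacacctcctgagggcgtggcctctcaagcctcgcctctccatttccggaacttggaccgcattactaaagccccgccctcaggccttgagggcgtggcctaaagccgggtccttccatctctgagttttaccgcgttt
Brca2 (chr5:150522371-150522670, plus strand): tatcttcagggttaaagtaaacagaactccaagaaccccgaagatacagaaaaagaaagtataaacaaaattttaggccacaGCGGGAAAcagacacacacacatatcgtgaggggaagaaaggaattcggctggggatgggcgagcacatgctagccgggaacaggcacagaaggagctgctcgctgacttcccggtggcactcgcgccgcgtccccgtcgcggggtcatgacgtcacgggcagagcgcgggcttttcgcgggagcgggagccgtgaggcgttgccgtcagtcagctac
Msh6 (chr17:87974800-87975099, plus strand): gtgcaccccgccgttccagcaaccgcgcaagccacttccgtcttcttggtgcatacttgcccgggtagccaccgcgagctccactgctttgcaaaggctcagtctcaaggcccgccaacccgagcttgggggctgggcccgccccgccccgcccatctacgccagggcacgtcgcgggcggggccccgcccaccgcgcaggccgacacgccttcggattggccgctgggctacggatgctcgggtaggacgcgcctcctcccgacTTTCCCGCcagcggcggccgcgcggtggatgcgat
Topbp1 (chr9:103305077-103305376, plus strand): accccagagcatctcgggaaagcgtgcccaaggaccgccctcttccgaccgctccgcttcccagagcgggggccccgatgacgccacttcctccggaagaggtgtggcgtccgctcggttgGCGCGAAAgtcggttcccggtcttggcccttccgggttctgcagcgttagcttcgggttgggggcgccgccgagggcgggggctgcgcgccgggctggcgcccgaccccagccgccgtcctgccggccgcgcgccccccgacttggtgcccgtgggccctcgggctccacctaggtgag
Trp53bp1 (chr2:121271358-121271657, minus strand): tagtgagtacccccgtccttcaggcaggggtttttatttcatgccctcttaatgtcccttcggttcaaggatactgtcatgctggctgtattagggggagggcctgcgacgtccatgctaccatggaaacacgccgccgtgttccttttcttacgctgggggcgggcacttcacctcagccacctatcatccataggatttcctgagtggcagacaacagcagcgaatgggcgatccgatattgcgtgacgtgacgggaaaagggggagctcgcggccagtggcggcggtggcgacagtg

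A word was present in 3 of 18 S-phase-linked members (16.7%) and in 4 of 13 end-joining and damage-signalling members (30.8%), namely Topbp1, Chek2, Mdc1 and Xrcc6. Of all 27025 genes with a window, 2.605% held a word, and 4.47% of those tested in PTEC did. The CCAAT word was present in 66.7% of the S-phase-linked and 53.8% of the other members, against 41.1% of all genes and 42.7% of those tested in PTEC. A cell-cycle word called CHR (TTTGAA, or else the variant TTCGAA) was present in 16.7% and 7.69%, against 21.7% of all genes and 16.4% of those tested in PTEC. The strongly down-regulated Eme1, Rad54l, Fanci and Polq had no E2F word in their windows. These matches describe letters in a short window and do not show binding.

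To learn how the repair genes stood in senescent versus non-senescent PTEC, 39 of the 40 members could be tested with edgeR's quasi-likelihood test. A gene was called where its Benjamini-Hochberg adjusted p was below 0.05 and its log2 fold change exceeded 0.5 in either direction. Senescent PTEC had lower levels of 31 members and a higher level of 1 member, Trp53bp1, and 7 were not called. Of all 15434 genes tested, 19.7% were called down and 20.1% up, 39.8% in either direction. The median log2 fold change was -1.77 over the members and -0.00 over all genes tested. The groups did not overlap for 31 members lower in senescent PTEC, against 19.9% of all genes, and for 1 higher, against 22.1%.

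**Figure D1:**
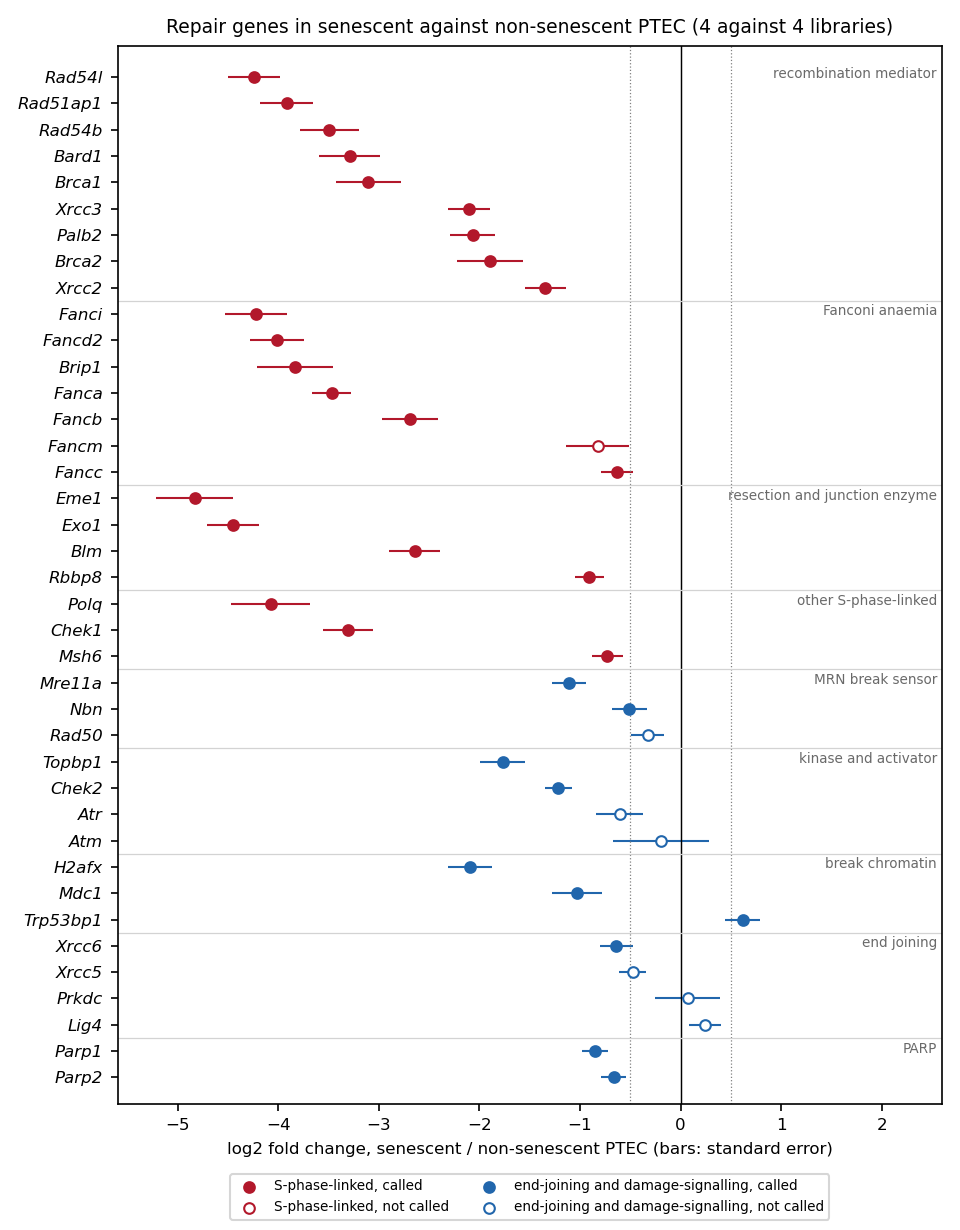
Log2 fold change of senescent against non-senescent PTEC for the 39 tested members, ordered by role (bars: standard error; dotted lines: 0.5 in each direction). Filled points were called. Red S-phase-linked members reach down to -4.83, and blue end-joining and damage-signalling members lie between -2.09 and 0.62.

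All 9 recombination mediators fell, and their median log2 fold change was -3.11. Brca1 (chr11:101488764-101551955, minus strand, GRCm38), a ubiquitin ligase that promotes resection and recombination, was measured at 48.9, 53.6, 20.6 and 34.3 CPM in non-senescent replicates 1 to 4 and at 5.44, 4.86, 3.03 and 4.97 CPM in senescent replicates. Its lowest non-senescent library lay above all senescent libraries, and it was 8.61-fold lower (log2 fold change -3.11 ± 0.32 (SE), edgeR adjusted p = 8.2e-05). Bard1, its obligate partner, fell by 3.29 ± 0.30 on the log2 scale. Rad54l, a motor protein that acts in strand invasion of the template, went from 27.9, 27.8, 20.3 and 15.9 CPM to 1.42, 1.37, 0.892 and 1.17 CPM. No library of the groups overlapped, and the level was 18.9-fold lower (log2 fold change -4.24 ± 0.26). Rad51ap1, which stimulates the same step, fell by 3.92 and the related motor Rad54b by 3.50. Brca2, a mediator of strand exchange, and Palb2, which bridges it to Brca1, fell by 1.90 and 2.07. Xrcc2 and Xrcc3, which also act in strand exchange, fell by 1.34 and 2.10.

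Of the 7 Fanconi anaemia genes, 6 fell. Fancd2, which with Fanci forms the clamp that is ubiquitinated at a crosslink, was at 28.6, 29.0, 16.5 and 19.3 CPM in non-senescent and at 1.70, 1.67, 1.05 and 1.35 CPM in senescent PTEC. The groups were far apart, with a 16.2-fold lower level in senescent PTEC (log2 fold change -4.01 ± 0.27, edgeR adjusted p = 6.4e-06). Fanci fell by 4.22 and Brip1, a helicase bound to Brca1, by 3.83. Of the core complex, Fanca fell by 3.47 and Fancb fell by 2.69, whereas Fancc fell by only 0.63. Fancm, the translocase that anchors the core complex, was at 27.1, 28.5, 10.1 and 20.3 CPM against 13.2, 14.6, 8.10 and 12.8 CPM. Its groups overlapped in non-senescent replicate 3, and it missed the threshold (log2 fold change -0.82 ± 0.31, edgeR adjusted p = 0.057). Without non-senescent replicate 3 it was called at -1.05, and with same-numbered libraries paired by a replicate block at -0.75, with adjusted p from 0.0033 to 0.14 over all alternatives.

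The resection and junction enzymes all fell. Eme1, a subunit of the nuclease that cuts joint molecules, had the lowest fold change of all members. It was at 16.9, 14.3, 14.6 and 7.31 CPM in non-senescent and at 0.708, 0.469, 0.243 and 0.449 CPM in senescent PTEC. Every senescent library was under 1 CPM, and the log2 fold change was -4.83 ± 0.38 (edgeR adjusted p = 1.8e-05). Exo1, the long-range resection nuclease, went from 33.5, 30.3, 24.2 and 16.8 CPM to 1.42, 1.005, 1.22 and 1.14 CPM, which was 21.9-fold lower. The helicase Blm fell by 2.64. Rbbp8, which starts resection with the MRN complex, fell by only 0.91 and kept a mean of 41.1 CPM in senescent PTEC. Among the remaining members of this class, Polq, the polymerase of microhomology-mediated end joining, fell by 4.07 and Chek1, the kinase downstream of ATR, by 3.31. Msh6, a mismatch recognition subunit, fell by 0.73 from a mean of 83.7 to 50.6 CPM.

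In all, 22 of the 23 S-phase-linked members fell, with a median of -3.29 and a range from -4.83 to -0.63. The class was not uniform. Fancc, Msh6, Fancm and Rbbp8 had log2 fold changes above -1, Xrcc2 and Brca2 lay between -2 and -1, and the other 17 were lower still.

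Of the 16 tested end-joining and damage-signalling members, 9 fell and 1 rose, with a median of -0.62. Among the sensors of the MRN complex, Mre11a, its nuclease, fell by 1.11 and Nbn, which recruits ATM, by 0.51. The call of Nbn was lost in 12 of 18 alternatives. Rad50, the tethering ATPase, was not called (log2 fold change -0.33 ± 0.16, edgeR adjusted p = 0.12).

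Of the kinases and their activators, Topbp1, which activates ATR, was at 209, 205, 107 and 129 CPM in non-senescent and at 47.9, 49.3, 41.7 and 51.6 CPM in senescent PTEC. Its senescent libraries were close to each other and all lower, with a 3.41-fold difference (log2 fold change -1.77 ± 0.22). Chek2, the kinase downstream of ATM, fell by 1.22. Atm was at 44.1, 56.5, 8.31 and 55.8 CPM against 43.1, 38.1, 22.2 and 40.2 CPM. The groups overlapped, and the lowest library of both was replicate 3. Atm was not called (log2 fold change -0.20 ± 0.48), and without both replicates 3 it stayed under the fold threshold at -0.35. Without 1 library it ran from -0.53 (without non-senescent replicate 3) to -0.01 and was not called. Atr, the kinase of stalled forks, was not called at -0.61 ± 0.23 (edgeR adjusted p = 0.058) and was called at -0.74 without both replicates 3 and at -0.55 with the replicate block. Atrip, the partner of Atr, was too low to test in PTEC, at 0.061 to 0.368 CPM, although kidneys held 7.24 to 13.2 CPM. Its gene model had version 8 in the PTEC counts and version 9 in the kidney counts. It shares 1147 exonic bases with Trex1 on the same strand, which was listed at 0 in all libraries, so the Atrip values are uncertain.

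The chromatin proteins at breaks moved in opposite directions. H2afx, the histone variant phosphorylated around a break, was at 78.4, 83.1, 87.3 and 45.0 CPM in non-senescent and at 16.5, 14.9, 20.6 and 16.7 CPM in senescent PTEC. It was 4.27-fold lower (log2 fold change -2.09 ± 0.22, edgeR adjusted p = 8.4e-05), the lowest fold change of its class. Mdc1, which binds the phosphorylated histone, fell by 1.03. Trp53bp1 (chr2:121193281-121271407, minus strand), which shields ends from resection, was at 60.1, 64.6, 39.6 and 65.7 CPM against 90.0, 85.7, 77.5 and 99.97 CPM. All senescent libraries lay above all non-senescent libraries, and it was the member that rose (log2 fold change 0.62 ± 0.17, edgeR adjusted p = 0.016). Its call was lost without non-senescent replicate 3, at 0.48, and without senescent replicate 4, at 0.56. Trp53bp1 shares 2130 exonic bases with Tubgcp4 on the opposite strand.

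Among the end-joining genes, Xrcc6 and Xrcc5 encode the Ku ring that caps broken ends. Xrcc6 fell by 0.64, and Xrcc5 passed the adjusted p (0.018) but not the fold threshold at -0.48. Prkdc, the kinase recruited by Ku, was at 27.5, 34.2, 13.8 and 44.9 CPM in non-senescent and at 35.8, 32.4, 20.8 and 37.4 CPM in senescent PTEC. The senescent values lay within the non-senescent range, and the log2 fold change was 0.07 ± 0.32. Lig4, the ligase that seals the ends, was at 29.7, 29.9, 19.1 and 26.1 CPM against 29.7, 33.0, 30.0 and 31.2 CPM. It was not called either (0.24 ± 0.16), and its value was 0.12 without non-senescent replicate 3. Parp1 and Parp2, which mark breaks with ADP-ribose, fell by 0.85 and 0.67.

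**Figure D2:**
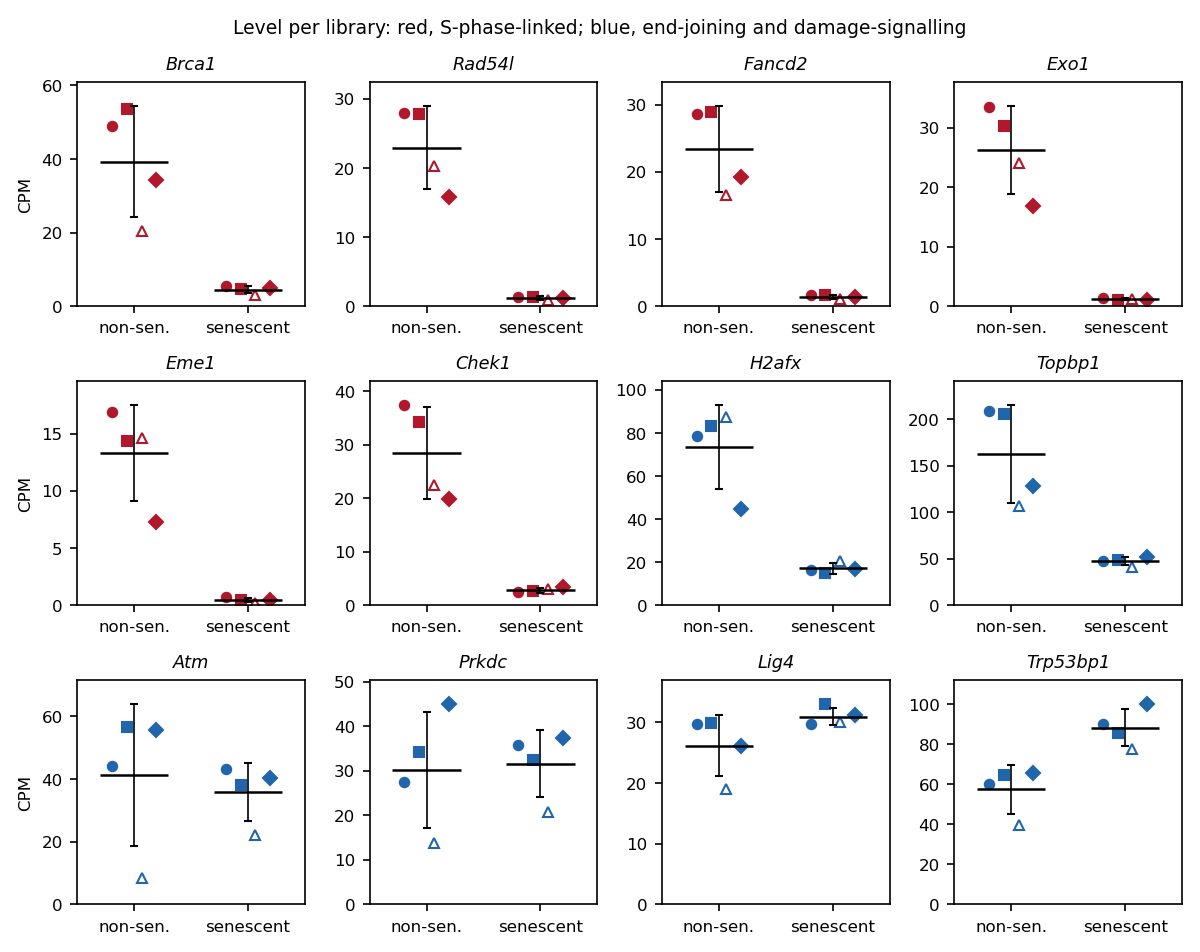
CPM per library of 12 members in non-senescent and senescent PTEC (line: mean; bar: SD; circle, square, open triangle and diamond: replicates 1 to 4). The 6 red S-phase-linked members have no overlap between groups, Atm, Prkdc and Lig4 overlap, and Trp53bp1 is higher in senescent PTEC.

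The classes can be set side by side within each library as the mean of log2(CPM + 0.1) over the S-phase-linked members less that of the others. It was -0.88 ± 0.20 (SD, n = 4) in non-senescent and -3.09 ± 0.10 in senescent PTEC, and without Atrip -1.32 ± 0.16 and -3.48 ± 0.09. Genes outside the members moved in the same libraries. All 18 DNA replication genes were called down, from a summed 1251 to 2290 CPM to 265 to 280 CPM, and all 10 mitosis genes, from 1123 to 1869 CPM to 31.4 to 56.4 CPM. Of 10 p53 target genes 9 were called up, from a summed 1631 to 1735 CPM to 3376 to 3571 CPM. Of 6 fibroblast genes, 3 of the 5 tested were called up, from a summed 9.99 to 67.1 CPM to 66.2 to 262 CPM. Of the 12 proximal tubule genes 7 were tested and 4 of them were called down, with a median log2 fold change of -2.20. Of the leukocyte genes 2 of 4 tested were called down (summed 9.14 to 22.7 and 6.38 to 22.2 CPM), of the macrophage genes 1 of 6 (52.2 to 78.2 and 29.7 to 82.6 CPM) and of the endothelial genes 1 of 5 (66.0 to 233 and 63.9 to 259 CPM). Their part in the repair gene differences was not tested.

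Levels of different members were compared per length. In CPM per kilobase of exon, H2afx (53.1), Parp1 (25.2) and Xrcc5 (24.4) led in non-senescent PTEC, and Xrcc5 (17.5), Parp1 (13.9) and H2afx (12.4) in senescent PTEC. The median per-length level of the S-phase-linked members was 2.98 and 0.367, and that of the other members 8.89 and 5.15.

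In kidneys most S-phase-linked members were low, with exceptions such as Msh6 (means of 17.5 to 27.3 CPM) and Rbbp8 (16.6 to 19.6 CPM). At 3, 12 and 24 months, 14, 12 and 13 of the 23 members had a mean under 1 CPM, against none in non-senescent and 2 in senescent PTEC. Per kilobase their median was 0.0795, 0.126 and 0.148, and that of the other members 1.69, 1.94 and 1.70, led at each age by Xrcc5 with 19.8, 23.6 and 23.9. The S-phase-linked median fell on a different member at each age (Palb2, Blm and Brca1), so its rise is not a change of the class. In CPM the median of this class was 0.811, 0.425 and 0.845, lowest at 12 months. The within-library difference of the classes was -3.47 ± 0.24, -3.82 ± 0.21 and -3.43 ± 0.25 (SD, n = 3). Kidneys and PTEC were counted on different gene sets, so these levels are set side by side without a test. Rad54b had 0 counts in 1 kidney of 12 months, which allows up to 0.0555 CPM, and was too low to test in kidneys.

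With 24 against 3 months no member was called in the fit over all 9 kidneys by edgeR, where 1.89% of 17067 genes were called up and 0.451% down (2.34% in either direction). At an unadjusted p under 0.05, 4 members were higher (Brca2, Rad54l, Fanci, Msh6) and 1 lower (Fanca), 12.8% of the members against 18.2% of all genes in either direction. DESeq2 called Fanca alone, at -0.94, against 1.03% of all genes called down and 2.42% up. All 24-month kidneys lay above all 3-month kidneys for 7 members (Brca2, Rad54l, Xrcc3, Fanci, Exo1, Msh6 and H2afx), against 11.9% of all genes, and below them for 3 (Fanca, Fancc and Rbbp8), against 10.1%. The median log2 fold change was 0.36 for the 22 tested S-phase-linked members, 0.22 for the others and 0.00 for all genes. With only genes of at least 1 CPM tested, which left 27 of the 39 members, the S-phase-linked median was 0.03. With Atr, Atrip, Topbp1 and H2afx set in the S-phase-linked class the median of the others was 0.08. With the classes as given and 1 kidney left out, the median of the others ran from 0.13 (without 3-month replicate 3) to 0.33. The 3-month kidneys were counted on another gene set than the older ones, with another version of Fancb, Rbbp8, Msh6 and Xrcc5.

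With 12 against 3 months 1 member fell and none rose, against 1.36% and 1.22% of all genes (2.58% in either direction). Fanca, a scaffold of the Fanconi core complex, was at 5.33, 3.40 and 3.87 CPM at 3 months, at 1.27, 1.63 and 1.68 CPM at 12 months and at 2.64, 1.85 and 2.07 CPM at 24 months. All 12-month kidneys lay below all 3-month kidneys (log2 fold change -1.46 ± 0.24, edgeR adjusted p = 0.024). Without any 1 kidney the value ran from -1.59 to -1.25, and the call was kept only without 3-month replicate 2. Such fits called 21 to 467 genes of the whole table down, the most without 3-month replicate 2, against 232 with all kidneys. The call of Fanca was also lost with the ages fitted alone, where 26 genes were called down. Its adjusted p ran from 3.7e-06 to 0.0999 over all alternatives. Fanca shares 920 exonic bases with Zfp276 on the opposite strand. Brca2 was at 1.10, 1.35 and 0.742 CPM at 3 months and at 2.93, 1.83 and 2.70 CPM at 12 months, a log2 fold change of 1.22 ± 0.31 that edgeR did not call (adjusted p = 0.0814) and DESeq2 did. Brca1 had a log2 fold change of -1.19 ± 0.28 at 12 months, also called by DESeq2 alone. DESeq2 called 1.77% of all genes up and 1.92% down. At an unadjusted p under 0.05, 4 members were higher and 5 lower, 23.1% of the members against 16.5% of all genes. The 12-month kidneys lay above all 3-month kidneys for 5 members (Brca2, Xrcc3, Blm, Prkdc, Parp2), against 10.9% of all genes, and below them for 8 (Brca1, Bard1, Rad51ap1, Xrcc2, Fanca, Chek1, H2afx, Trp53bp1), against 9.4%. The median was -0.37 for the S-phase-linked members and -0.13 with only genes of at least 1 CPM tested, which left 27 of the 39 members. For the end-joining and damage-signalling members the median was 0.09. Without 1 kidney it ran from -0.05 (without 3-month replicate 3) to 0.21, so that its sign was not stable.

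With 24 against 12 months 1 member rose and none fell, against 0.896% and 0.434% of all genes (1.33% in either direction). Brca1 was at 1.16, 1.02 and 0.742 CPM at 3 months, at 0.364, 0.428 and 0.482 CPM at 12 months and at 1.45, 1.35 and 0.983 CPM at 24 months. The 12-month kidneys were the lowest of all 9, and the 3- and 24-month kidneys overlapped. Brca1 was higher at 24 than at 12 months by 1.57 ± 0.27 on the log2 scale (edgeR adjusted p = 0.036), on 21 to 26 counts per library at 12 months and 64 to 95 at 24 months. The call was lost without any 1 of the 6 kidneys, with the ages fitted alone and with a replicate block over all 9 kidneys (1.54, adjusted p = 0.13), and adjusted p ran from 0.00023 to 0.14 over all alternatives. Of the whole table, 0 to 55 genes were called up without 1 kidney, 141 with the ages alone and 0 with the block. The fit with all 9 kidneys and no block called 153 up.

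Other S-phase-linked members also had all 24-month kidneys above all 12-month kidneys, without a call. Rad51ap1 was at 0.156, 0.115 and 0.193 CPM at 12 months and at 0.397, 0.684 and 0.430 CPM at 24 months (log2 fold change 1.70 ± 0.41, edgeR adjusted p = 0.088). Fanci was at 0.243, 0.181 and 0.0965 CPM and at 0.458, 0.851 and 0.507 CPM (1.78 ± 0.42, adjusted p = 0.0815). Exo1 and Rad54l were higher by 1.76 and 1.48, and their groups did not overlap. At an unadjusted p under 0.05, 9 members were higher and 1 lower, 25.6% of the members against 15.2% of all genes. DESeq2 called 4 members up (Brca1, Rad51ap1, Fanci, Exo1) and none down, against 1.64% and 0.952% of all genes. Same-numbered kidneys of 12 and 24 months deviated together, and a fit of these ages alone with the replicate block called 8 members up and none down, against 7.77% and 5.41% of all genes. They were Brca1, Rad51ap1, Rad54l, Fanci, Exo1, Chek1, Msh6 and H2afx.

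Of the 22 tested S-phase-linked members, 10 had all 24-month kidneys above all 12-month kidneys and 1, Brip1, had them below, against 13.5% and 12.2% of all genes. Of the 17 others, 3 (H2afx, Mdc1, Trp53bp1) lay above and 2 (Chek2, Prkdc) below. Their medians were 0.47 and 0.11, with -0.00 over all genes, and the latter was -0.01 without 12-month replicate 2. With only genes of at least 1 CPM tested, the S-phase-linked median was 0.02. This filter left 27 of the 39 members and took out Rad51ap1, Fanci, Exo1 and Rad54l, so this median is over a smaller set. H2afx was at 8.99, 6.76 and 9.86 CPM at 12 months and at 12.5, 13.4 and 11.9 CPM at 24 months. Prkdc was at 18.8, 18.5 and 18.5 CPM and then at 16.6, 13.3 and 16.6 CPM. Xrcc5, the most abundant member, overlapped in every comparison of ages.

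**Figure D3:**
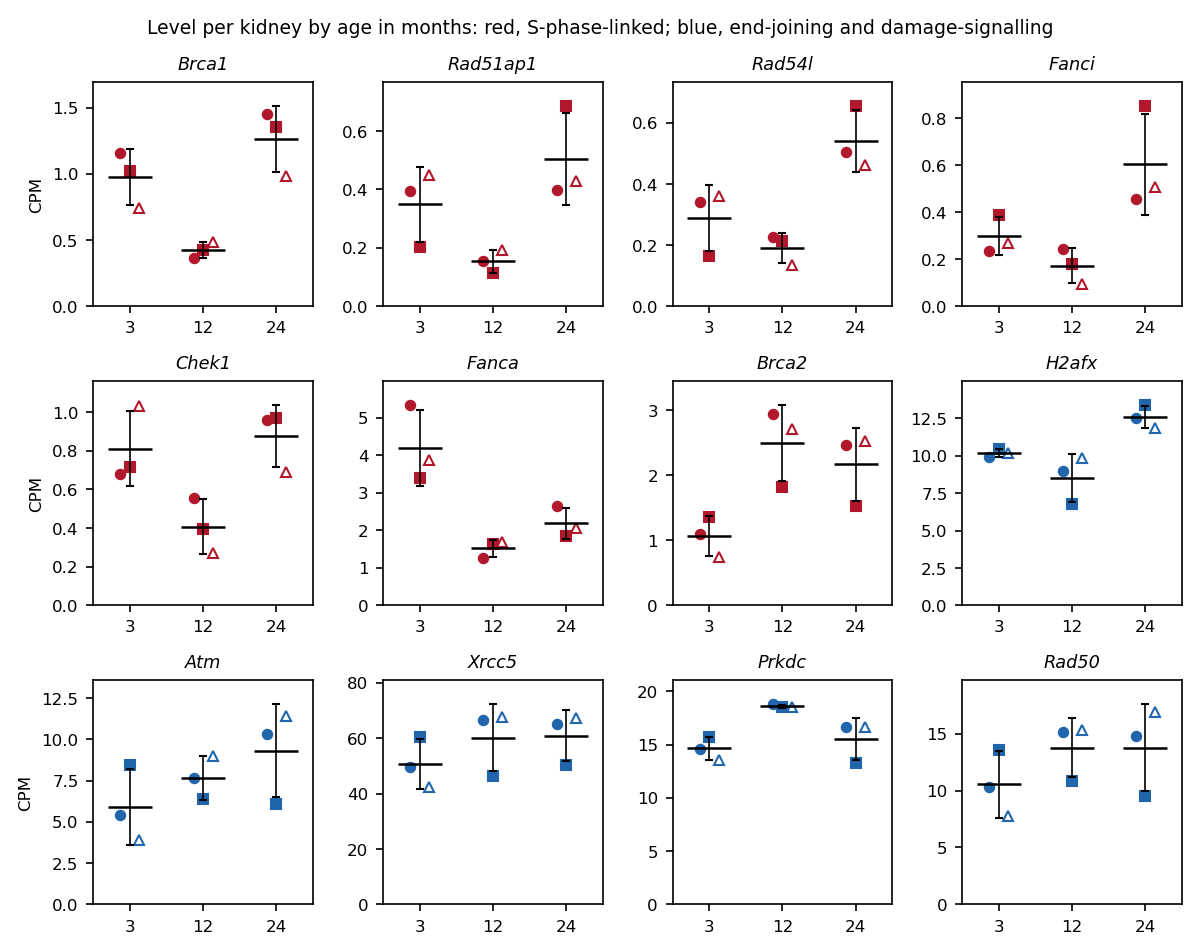
CPM per kidney of 12 members at 3, 12 and 24 months (line: mean; bar: SD; circle, square and open triangle: replicates 1 to 3). Brca1, Rad51ap1, Rad54l and Fanci have all 24-month kidneys above all 12-month kidneys, Fanca is highest at 3 months, and Atm, Xrcc5 and Rad50 overlap at all ages.

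Markers of other cells and of division differed between the same kidneys. The 10 mitosis genes summed to 9.20 to 10.9 CPM at 3 months, 5.96 to 7.86 at 12 months and 19.6 to 47.4 at 24 months. Of them, 4 of 10 were called up at 24 against 12 months and 4 of 10 at 24 against 3 months. At 24 against 3 months edgeR called no member, and DESeq2 called Fanca down. The 18 DNA replication genes summed to 166 to 187, 146 to 154 and 174 to 187 CPM. In this list 1 gene was called down at 12 against 3 months, 1 up at 24 against 12 months and 0 at 24 against 3 months. The 12 T and B cell genes summed to 6.64 to 10.1, 15.8 to 98.6 and 24.8 to 111 CPM, the 5 leukocyte genes to 29.1 to 39.7, 48.1 to 60.3 and 54.7 to 78.0 CPM, and the 6 macrophage genes to 83.8 to 118, 114 to 150 and 142 to 182 CPM. Of these, 5 T and B cell genes and 1 macrophage gene were called up at 24 against 3 months and 2 T and B cell genes at 12 against 3 months. The 6 fibroblast genes summed to 89.8 to 107, 107 to 127 and 134 to 162 CPM, and the 5 endothelial genes to 141 to 198, 213 to 241 and 150 to 255 CPM. The 12 proximal tubule genes summed to 46164 to 47257, 48390 to 51088 and 38281 to 42857 CPM, a sum of which Kap alone held means of 35576, 36587 and 25080 CPM. Gene by gene, at 24 against 3 months 2 of 12 were called up and 0 down (median 0.46), and at 24 against 12 months 0 were called (median 0.11). The 10 p53 target genes summed to 424 to 516, 371 to 398 and 612 to 711 CPM. Of the p53 targets, 2 were called up at 24 against 3 months, 3 up at 24 against 12 months and 1 down at 12 against 3 months. None of these lists had a gene at 0 in all kidneys of an age. Whether these cells carry the repair gene differences was not tested.

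**Figure D4:**
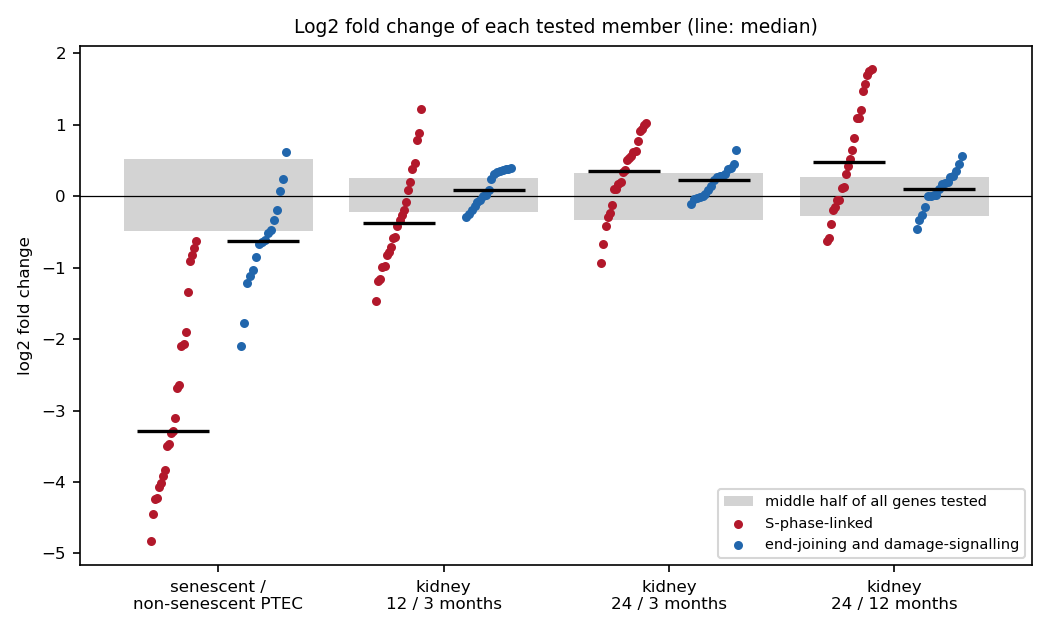
Log2 fold change of every tested member in each comparison, by class (line: class median; grey: middle of all genes tested, from the lower to the upper quartile). The S-phase-linked median is -3.29 in PTEC and -0.37, 0.36 and 0.47 for 12 against 3, 24 against 3 and 24 against 12 months.

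PTEC and kidneys share no library, so the members can be placed in both. Over the 38 members tested in both, the PTEC log2 fold change and that of 24 against 12 months had a Pearson r of -0.63 and a Spearman rho of -0.51, against -0.10 and -0.04 over the 14477 genes tested in both. The 7 members with the lowest PTEC values (Eme1, Exo1, Rad54l, Fanci, Polq, Fancd2, Rad51ap1) had positive values in kidneys, from 0.43 to 1.78, but Brip1, at -3.83 in PTEC, was at -0.59. The members are not independent points, since they share libraries, and low kidney counts widen the spread of the S-phase-linked members. Against 12 versus 3 months r was 0.46 (0.11 over all genes tested in both) and against 24 versus 3 months -0.32 (0.01), and these comparisons share kidneys with each other.

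**Figure D5:**
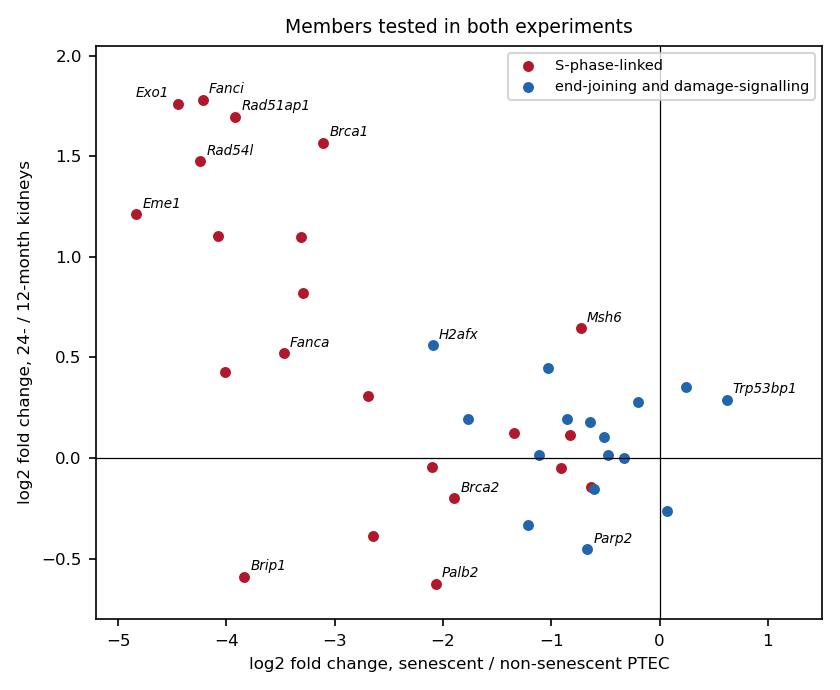
Log2 fold change in PTEC (horizontal) and of 24- against 12-month kidneys (vertical) for the 38 members tested in both. Exo1, Fanci, Rad51ap1, Rad54l and Brca1 lie at the upper left, and the blue end-joining and damage-signalling members lie between -0.45 and 0.56 on the vertical axis.

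Of 70 further genes of the same pathways, 69 were tested. In PTEC 28 were called down and 2 up, with a median of -0.42, where 19.7% of all genes were called down and 20.1% up. Among the lowest were Rmi2 (-4.83), a subunit of the Blm complex, and Clspn (-4.72), the adaptor that brings Chek1 to ATR. The smallest called changes were those of Polm (-0.65), a gap-filling polymerase, Swsap1 (0.65), a recombination cofactor, and Xrcc1 (-0.69), a scaffold of single-strand break repair. Swsap1 and Parp3 (0.80), an ADP-ribosyltransferase named after its value was seen, were the genes called up. By role, 11 of 22 recombination genes, 7 of 16 crosslink repair genes, 8 of 20 signalling genes and 2 of 11 tested end-joining genes fell, the last a share near that of all genes. In kidneys Parp3 alone was called, with 17.8 ± 1.04 CPM at 3 months and 32.3 ± 0.466 CPM at 24 months (SD, n = 3, log2 fold change 0.86 ± 0.13, edgeR adjusted p = 0.013). This was 1 of 69 genes, where 1.89% of all genes were called up and 0.451% down. Its call was not examined under the alternatives. No further gene was called with 12 against 3 or 24 against 12 months, against 2.58% and 1.33% of all genes in either direction.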

How the data were processed

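Libraries of poly(A) RNA were made with a strand-marking kit and read from both ends. For processing, the authors name nf-core/rnaseq 1.4.2 on GRCm38 with GENCODE M18. The versions of 6 members differ between the deposited gene sets, so a single release cannot hold for all libraries. The authors deposited raw counts of reads per gene, without normalization. The aligner and counter within the pipeline and the strand setting of counting are not given in the sources used here. Of the 40 members, 20 have exons that overlap another gene, 14 of them by at least 100 bases on the opposite strand, and their counts could hold reads of both. Gene models were read from GENCODE M21 on GRCm38, and 34 members had 1 version in all gene sets (53715 identifiers in PTEC, 54146 in 3-month and 55401 in older kidneys).

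PTEC and kidneys were fitted apart in R 4.3.3 with edgeR 4.0.16 and limma 3.58.1 (TMM scaling, filterByExpr, robust quasi-likelihood test, Benjamini-Hochberg adjustment over all genes tested), and DESeq2 1.42.0 was an alternative. Python 3.11.15 (pandas 2.3.3, scipy 1.17.1, numpy 2.4.6) made the tables, and matplotlib 3.10.9 the figures. All adjusted p-values are from edgeR unless DESeq2 is named. All members were described by role, with library values for those called and for up to 12 per comparison, and of the further pathway genes the 3 largest and 3 smallest called changes were named, except 1 that is not reported here. The members, classes, lists and tests were chosen with earlier results of these data known. Alternatives were other scalings, filters, thresholds, tools and class assignments, each library left out in turn, the compared ages alone and a replicate block.

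Same-numbered libraries deviated together in PTEC (r from 0.211 to 0.686 over 4 pairs) and in 24- and 12-month kidneys (0.332 to 0.703 over 3 pairs). In simulated data of the PTEC design edgeR recovered 95 of 100 genes changed by 2 on the log2 scale and 49 of 100 changed by 1, with 11 false among 155 calls, and for a fit of the 24- and 12-month kidneys alone, not of all 9, 97 and 42, with 13 false among 152. DESeq2 had 52 false among 226 and 55 among 221. The changed genes were drawn from those with a mean above 1 CPM, so the recovery does not describe members under that level. At 3, 12 and 24 months 14, 12 and 13 of the 23 S-phase-linked members were under it. The simulation also changed far fewer genes than the 39.8% called in PTEC, so its false calls need not hold there. Replicates differed beyond counting error in all 21 pairs (chi-square per gene 17.0 to 341).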

Additional observations from a re-analysis of the deposited data

Results flagged for a closer look

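In 80 groups of 4 PTEC libraries examined, 3 held a library far from the others, where chance gives about 1 in 20 groups. Rad51ap1 was at 13.1 CPM in non-senescent replicate 4 and at 23.0 to 24.6 CPM in the other non-senescent libraries. Atr was at 27.3 CPM in non-senescent replicate 3 against 55.1 to 59.5 CPM. Chek2 was at 30.7 CPM in the same library against 34.3 to 35.0 CPM. Non-senescent replicate 3 also had the lowest long genes against short genes of all PTEC libraries.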

How the results depend on the processing

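Of the fold changes of the 39 members tested in PTEC and of those given with a test in kidneys (6 at 24 against 3 months, 6 at 12 against 3 and 11 at 24 against 12), each under the alternatives that tested it (members too low for the 1 CPM filter were not tested under it), 1006 kept direction and side of the threshold, 24 gained and 36 lost a call and 4 changed sign, none of them called. Atm turned to 0.047 with the replicate block, and Prkdc to -0.16 without non-senescent replicate 3, to -0.018 without senescent replicate 4 and to -0.0032 without both replicates 3 (leaving out 1 library gave -0.16 to 0.32). In PTEC the replicate block called 33 members down and 1 up, against 21.3% and 23.2% of all genes. Leaving out 1 library gave 0 to 1 members up and 30 to 33 down. Of all genes these fits called 16.8% to 21.4% up and 15.1% to 20.4% down. With a log2 fold change above 1 required, 0 members rose and 5 of the end-joining and damage-signalling members fell, since the threshold removed smaller changes. Of all 15434 genes, 2067 rose and 1686 fell at this threshold. Moving Atr, Atrip, Topbp1 and H2afx, or Msh6, Fancc and Rad54b, to the other class changed no count of members called up or down by over 1.5 times.

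Kidney calls were less stable. With 24 against 3 months DESeq2 called 1 member down. With 12 against 3 months DESeq2 called 1 up and 2 down, while the replicate block and the ages alone called 0 down and leaving out 1 kidney 0 to 1. With 24 against 12 months DESeq2 called 4 up, the replicate block over 9 kidneys 0, the ages alone 0, leaving out 1 kidney 0, and the ages alone with the replicate block, an alternative chosen after seeing the data as was leaving out both PTEC replicates 3, called 8 (7 S-phase-linked and 1 other). The cause was not tested. The replicate block over 9 kidneys called 0 genes of the whole table at 24 against 12 months. Leaving out 1 kidney there called 0 to 55 genes of the whole table up and the ages alone 141, against 153 in the fit given first. At 12 against 3 months, leaving out 1 kidney called 21 to 467 genes down, the ages alone 26 and the replicate block 66, against 232. Same-numbered kidneys did not deviate together at 12 and 3 months (r from -0.810 to -0.080) or at 24 and 3 months (-0.604 to -0.043), where every r was negative. The labels do not say what the numbers mark. Under DESeq2 and without a filter on low counts, the median of all genes in PTEC shifted to 0.11. S-phase-linked kidney counts down to 3 per library, and 0 for Rad54b, limit what could be detected.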
